A study of Mus musculus with 4 samples.

Results

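Neutrophil-like cells among mouse leukaemia cells from bone marrow were taken as the cell barcodes in which S100a8, S100a9, Ngp and Camp together made up at least 1% of the cell's unique molecular identifiers (UMIs, counts of single captured transcripts), after barcodes with over 10% mitochondrial UMIs were set aside. This rule found 303 cells among 5456 kept cells (5.55%). The study asked what loss of Hif-1alpha, the oxygen-regulated subunit of hypoxia-inducible factor, does in acute myeloid leukaemia driven by MLL-AF9, a fusion oncogene. GFP-positive marrow cells were sorted and sequenced on the 10x Chromium 3' V2 system, which counts transcript ends. Each of the 4 samples stands alone in its group: Hif-1a KO with chemotherapy, Hif-1a KO with PBS, Hif-1a wt with chemotherapy, and Hif-1a wt with PBS. The C57BL6 mice were 11 weeks old.

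All 4 samples, the wild-type ones included, carry leukaemia made by infecting c-Kit-positive marrow of floxed Hif-1alpha, CreERT2 mice with the MLL-AF9 retrovirus, and wild-type mice first carried that leukaemia before it was transplanted again. At day 10 after this second transplant, mice began 5 days of intraperitoneal treatment with 1 mg tamoxifen, which activates CreERT2, or with vehicle. Mice given chemotherapy received 100 mg/kg cytarabine on 5 days and 3 mg/kg doxorubicin on 3 days, and the others received PBS. Marrow was taken 3 days after the last dose. As the protocol describes it, tamoxifen or vehicle sets KO and wt leukaemias apart, so tamoxifen and the deletion cannot be told apart in these samples.

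The barcodes carry a suffix from 1 to 4, and no source used here ties a suffix to a sample. No comparison of genotype or treatment was therefore made, each suffix has its own values, and no p-value was computed, since cells of a library are not replicates. The cells were chosen by the share of UMIs from the 4 rule genes, which are therefore given as a description. Every other gene was measured in the same cells, so differences between these cells and the rest describe the chosen cells and are no independent support for the choice.

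Neutrophils arise in marrow through promyelocyte, myelocyte, metamyelocyte and band stages. Azurophil (primary) granule proteins such as neutrophil elastase and myeloperoxidase are made first, specific (secondary) granule proteins such as lactoferrin and lipocalin-2 in myelocytes, and gelatinase (tertiary) granule proteins such as MMP9 later. The transcription factors C/EBP-epsilon and GFI1 are needed for specific granules, IRF8 favours the monocyte fate over the granulocyte fate, and dividing stops at about the metamyelocyte stage.

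The share of neutrophil-like cells differed several-fold among suffixes. There were 12 of 1174 kept cells in suffix 1 (1.02%, exact binomial 95% interval 0.529 to 1.78%) and 21 of 1251 in suffix 2 (1.68%, 1.04 to 2.55%). Suffix 3 held 159 of 1625 (9.78%, 8.38 to 11.3%) and suffix 4 held 111 of 1406 (7.89%, 6.54 to 9.43%). Suffixes 3 and 4 thus stood apart from suffixes 1 and 2 beyond counting error. This interval and the exact Poisson and conditional binomial intervals below cover counting error only. None of the barcodes over the mitochondrial limit met the marker rule, and of 17 barcode sequences found in more than 1 suffix, 0 belonged to a neutrophil-like cell.

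**Figure D1:**
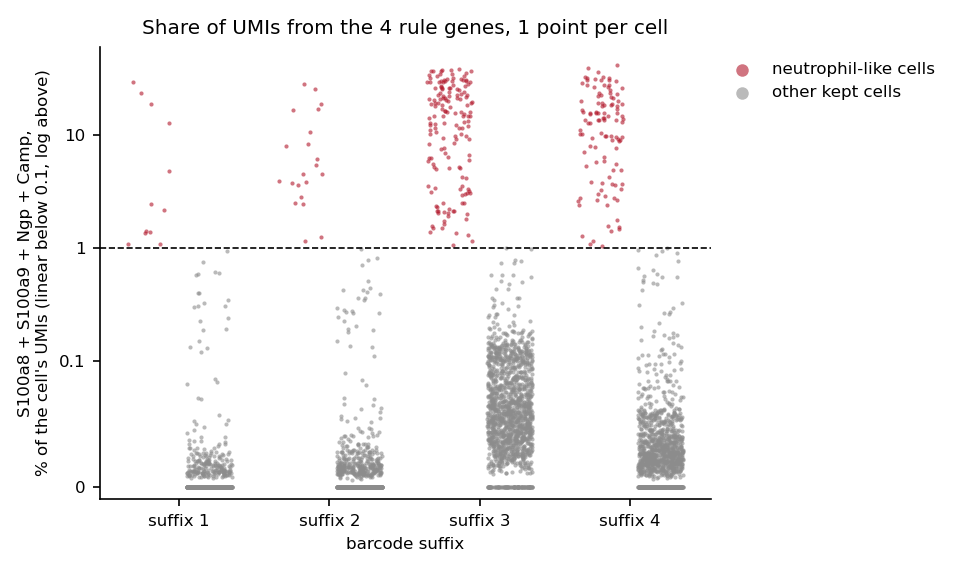
Share of each kept cell's UMIs from the 4 rule genes (percent, logarithmic above 0.1), by barcode suffix, with neutrophil-like cells left of the other kept cells and the rule's 1% line dashed. Neutrophil-like cells reach 29.2, 28.0, 38.0 and 41.5% in suffixes 1 to 4, and 5 of the 12 in suffix 1 lie under 2%.

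The cut mattered most in suffix 1, where 5 of the 12 cells had under 2% of their UMIs from the rule genes. A 2% minimum left 7 cells there (0.596%) and a 0.5% minimum gave 18 (1.53%). The 5 cells just inside it had 1.03 to 1.09% of their UMIs from the rule genes, and the 5 just outside had 0.951 to 0.991%. Between 1 and 2% there were 29 neutrophil-like cells, and between 0.5 and 1% there were 36 other cells. The rule genes gave 7.12, 7.57, 15.2 and 14.2% of the summed UMIs of neutrophil-like cells in suffixes 1 to 4, against a median per cell of 0, 0, 0.0580 and 0.0223% in the other kept cells. The low level outside the group was thus not the same in all libraries, and background shares of cells with a UMI are given beside the first such share of a gene.

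Depth differed little between the groups. The median was 5437, 6726, 6264 and 5128 UMIs per neutrophil-like cell in suffixes 1 to 4, against 6107, 6434, 5147 and 5336 in other kept cells. Mitochondrial UMIs were 2.60, 2.41, 1.63 and 1.66% at the median in neutrophil-like cells and 2.89, 2.83, 2.59 and 2.73% in the others. After thinning to 1000 UMIs, the median neutrophil-like cell had 565, 549, 477 and 490 genes, against 590, 579, 551 and 552. Neutrophil-like cells of suffixes 3 and 4 thus showed fewer genes at equal depth and a lower mitochondrial share. The rule genes took 15.2 and 14.2% of their summed UMIs, which leaves fewer UMIs for all other genes, mitochondrial ones included. The part of the rule in both differences was not tested.

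The neutrophil name was checked against 11 further neutrophil markers. Of these, 10 were at least 2-fold higher in the neutrophil-like cells of suffixes 3 and 4, and their summed level was 4067 to 23878 CPM (UMIs of a gene scaled by all UMIs of the group, where 10000 CPM is 1% of them) over the 4 suffixes, against 225 to 1006 CPM in other kept cells. The exception was Csf3r, the receptor of granulocyte colony-stimulating factor, at 93.0, 65.6, 26.3 and 41.6 CPM against 18.6, 18.9, 25.3 and 22.2 CPM. Chil3 and Lcn2 gave most of the summed level. Chil3 alone had 9817 of the 17075 CPM in suffix 3 and 15829 of the 23878 CPM in suffix 4. Retnlg, Mmp8, Cxcr2 and Ly6g were each seen in at most 14.5% of neutrophil-like cells of these suffixes, against at most 7.18% of other kept cells. Of 8 monocyte markers with a level to compare, 7 were lower. Their summed level of 2492 to 3416 CPM, against 3050 to 5227 CPM, came mostly from Ly6c2, an antigen that immature neutrophils also carry.

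Markers of most other cell types were low or at 0. The 7 T and NK cell markers had no UMI in neutrophil-like cells, 7 of 8 erythroid markers were at 0 in suffixes 3 and 4, and so were the macrophage genes Mrc1, C1qa, C1qb, C1qc and Marco. Summed stem and progenitor markers stood at 21.9 to 39.0 CPM, against 283 to 367 CPM, and mast cell and basophil markers at 7.29 to 39.9 CPM, against 97.3 to 375 CPM. Eosinophil markers ranged from 0 to 86.8 CPM, against 1.85 to 72.1 CPM, of which Prg2, the eosinophil major basic protein gene, reached 72.1 CPM in suffix 3. Summed B cell markers stood at 21.9 to 53.2 CPM, against 68.9 to 85.3 CPM, stromal and endothelial markers at 0 to 13.3 CPM, against 81.3 to 98.0 CPM, and macrophage markers at 102 to 179 CPM, against 147 to 466 CPM. Dendritic markers had 66.5, 21.9, 13.6 and 17.6 CPM, against 37.7, 31.3, 64.0 and 68.0 CPM. They were above the other cells only in suffix 1, on few UMIs, since 3 counts there would be 39.9 CPM. Megakaryocyte markers had 39.9, 7.29, 7.80 and 17.6 CPM, against 7.13, 3.91, 3.26 and 3.03 CPM, with Pf4, Ppbp and Itga2b at 0 in suffixes 3 and 4. These values were above the other cells but rest on few UMIs. In suffix 1 39.9 CPM is 3 counts, and in suffix 2 7.29 CPM lies under the 21.9 CPM of 3 counts. Vcam1, fixed here as a macrophage marker, was also higher, at 39.9, 51.0, 41.9 and 76.8 CPM against 1.85, 4.03, 3.71 and 4.67 CPM. The part of these other markers in the results was not tested.

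A gene was counted as higher or lower when it differed at least 2-fold in the same direction in both suffixes with 30 or more neutrophil-like cells (3 and 4), on log2 of CPM with 5 CPM added on both sides. Among 4897 genes with at least 20 CPM on either side, 160 were higher (3.27%) and 315 were lower (6.43%), and the median gene had a log2 ratio of -0.30. The 4 rule genes took so many UMIs that scaling decides part of this split: with totals counted without them it was 215 higher and 234 lower, with trimmed-mean (TMM) factors 224 and 227, and with median-of-ratios factors 237 and 213. The median gene then stood at -0.10, -0.07 and -0.04. A log2 ratio below is the median over suffixes 3 and 4, and background for a list is the 3.27% higher and 6.43% lower among all genes.

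Secondary and tertiary granule genes were far higher in the neutrophil-like cells. Of 18 listed genes, 13 had enough UMIs to compare; 9 were higher and 0 lower, with a median log2 ratio of 4.07 against -0.30 for all genes. Ltf (lactoferrin, an iron-binding protein of specific granules) had 359, 255, 1073 and 842 CPM in suffixes 1 to 4, against 0, 0.122, 3.03 and 1.51 CPM in other kept cells. Ltf was higher in the neutrophil-like cells of every suffix. The ratio was 354 (95% interval 242 to 540) in suffix 3 and 556 (316 to 1083) in suffix 4.

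Lcn2 (lipocalin-2, which binds bacterial siderophores) had 1396, 1530, 4631 and 5570 CPM, against 29.6, 48.7, 65.9 and 89.0 CPM, a ratio of 70.3 in suffix 3 and 62.6 in suffix 4. Chil3 (the chitinase-like protein Ym1) had 904, 1078, 9817 and 15829 CPM, against 2.91, 9.77, 225 and 682 CPM. Chil3 was thus far scarcer in the neutrophil-like cells of suffixes 1 and 2 than in those of suffixes 3 and 4, and its level in other cells was lower there too. Fcnb (ficolin-B, a lectin of the complement system) had 651, 430, 1343 and 1173 CPM, against 4.62, 9.52, 37.6 and 44.5 CPM.

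Pglyrp1, a peptidoglycan-binding granule protein, differed least across the 4 libraries of the granule genes named here. It stood at 1701, 1618, 1673 and 1642 CPM, against 168, 164, 108 and 82.3 CPM, with a log2 ratio of 4.07. Gelatinase granule genes were present at lower levels. Mmp9 had 39.9, 117, 225 and 186 CPM, against 0.264, 0, 1.91 and 2.90 CPM, and Mmp8, neutrophil collagenase, had 0, 36.4, 87.7 and 75.2 CPM, against 1.45, 1.34, 18.1 and 20.6 CPM. Both were higher by the 2-fold rule in suffixes 3 and 4, and Mmp8 was not detected among the 75231 UMIs of suffix 1, where 3 counts would be 39.9 CPM. A Mmp8 UMI was seen in 7.55% and 8.11% of neutrophil-like cells of suffixes 3 and 4, against 6.96% and 7.18% of other kept cells. The higher level of Mmp8 thus came with nearly the same share of cells.

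Cd177, a surface protein of secondary granules, and Chil1 had log2 ratios of 3.23 and 4.33. The other 4 genes compared did not pass: Lyz2 (lysozyme, 0.67), Hp (haptoglobin, 0.79), Slpi (a leukocyte protease inhibitor, -0.12) and Qsox1 (0.58). Lyz2 is shared with monocytes and had 2313, 1122, 6935 and 7789 CPM, against 401, 696, 4161 and 5093 CPM. Transcripts of these 4 genes thus differed far less than those of Ltf, Lcn2, Chil3 and Fcnb.

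Granule transcripts were spread unevenly over cells. A Lcn2 UMI was seen in 97.5% and 98.2% of neutrophil-like cells in suffixes 3 and 4, against 23.3% and 23.6% of other kept cells, whose median depths are given above. An Ltf UMI was seen in 43 of 159 and 31 of 111 neutrophil-like cells, against 1.77% and 0.927% of other cells. In suffixes 1 and 2, 3 neutrophil-like cells each had Ltf, against 0% and 0.0813% of other cells, and a single cell held 81.5% and 88.6% of the Ltf UMIs, so the Ltf level there is that of 1 cell.

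**Figure D2:**
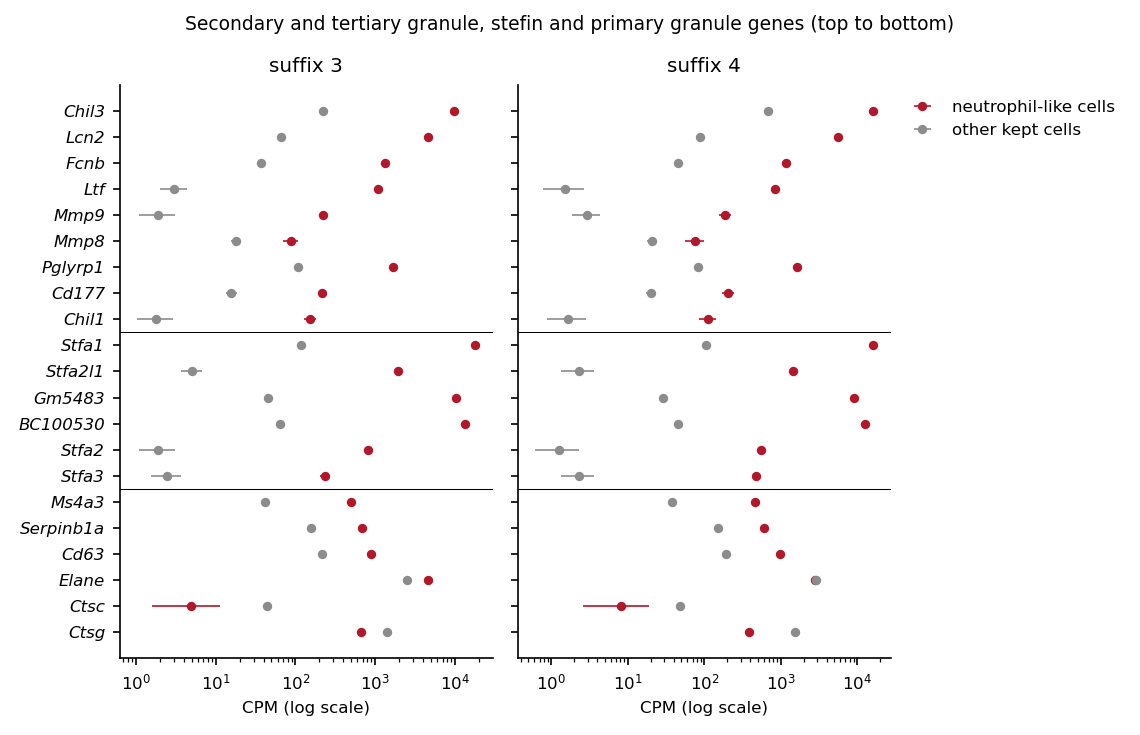
Levels (CPM, logarithmic axis, bars exact 95% Poisson intervals) of granule and stefin genes in neutrophil-like and other kept cells of suffixes 3 and 4. Secondary and tertiary granule genes and stefins lie far to the right in neutrophil-like cells, whereas Elane nearly coincides in suffix 4 and Ctsg and Ctsc lie to the left.

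The stefins, small cysteine protease inhibitors that mouse neutrophils make in quantity, had the highest median ratio of the lists compared. Of 10 genes, 9 had enough UMIs, 8 were higher and 0 lower, and the median log2 ratio was 6.67. The 9 genes other than Cstb together had 13478, 16796, 44860 and 40025 CPM in suffixes 1 to 4, against 13.5, 29.5, 238 and 185 CPM, that is 1.35, 1.68, 4.49 and 4.003% of all UMIs of neutrophil-like cells. Cstb (cystatin B), the stefin that most tissues express, was the member that did not pass, at 146, 255, 138 and 128 CPM against 182, 198, 193 and 208 CPM.

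Stfa1 had 6434, 6901, 17889 and 15998 CPM, against 8.98, 18.8, 118 and 104 CPM, a ratio of 152 and 153 in suffixes 3 and 4. Stfa2l1 had 279, 240, 1937 and 1442 CPM, against 0, 0.122, 5.05 and 2.27 CPM. Stfa3 had 0, 36.4, 234 and 467 CPM, against 0, 0, 2.47 and 2.27 CPM. Gm5483 and BC100530 had the largest log2 ratios of the family, 7.84 and 7.78. A Stfa2l1 UMI was seen in 100 of 159 (62.9%) and 73 of 111 (65.8%) neutrophil-like cells, against 3.00% and 1.24% of other kept cells. Counts of single stefins are uncertain, since some of their transcripts share stretches: of the 50-base stretches in the last 300 bases of BC100530, 62.2% are also found in another listed stefin, and the share was 36.9% for Stfa1, 24.3% for Stfa2l1 and 0% for Stfa3.

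The starts of these genes are shown because these genes were higher together and because the gene of C/EBP-epsilon was itself higher in these cells. Below are the 150 bases before the RefSeq transcript start (GRCm38.p6) of Ltf (chr9:111019142-111019291, plus strand), Lcn2 (chr2:32387740-32387889, minus strand), Camp (chr9:109849457-109849606, minus strand), Ngp (chr9:110419658-110419807, plus strand), Stfa1 (chr16:36276998-36277147, plus strand), Stfa2 (chr16:36408364-36408513, minus strand) and Stfa2l1 (chr16:36156661-36156810, plus strand), 5′ to 3′ in the direction of transcription. Camp and Ngp are rule genes and are shown as further granule genes of chromosome 9. Capitals mark matches to the C/EBP core TTNNGNAA, or TTNCNNAA on the other strand, except in Lcn2, where they mark the ETS core described below.
Ltf: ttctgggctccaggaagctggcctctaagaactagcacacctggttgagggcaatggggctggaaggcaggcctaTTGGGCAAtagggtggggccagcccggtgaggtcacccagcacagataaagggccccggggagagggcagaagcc
Lcn2: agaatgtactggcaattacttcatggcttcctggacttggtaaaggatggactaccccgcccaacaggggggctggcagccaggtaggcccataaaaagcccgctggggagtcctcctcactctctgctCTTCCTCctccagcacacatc
Camp: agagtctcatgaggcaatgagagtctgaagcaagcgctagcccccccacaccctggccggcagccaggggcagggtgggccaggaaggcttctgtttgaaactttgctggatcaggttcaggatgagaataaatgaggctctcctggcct
Ngp: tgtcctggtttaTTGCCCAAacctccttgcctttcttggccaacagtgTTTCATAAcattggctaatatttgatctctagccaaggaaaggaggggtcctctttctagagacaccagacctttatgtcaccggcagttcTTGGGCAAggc
Stfa1: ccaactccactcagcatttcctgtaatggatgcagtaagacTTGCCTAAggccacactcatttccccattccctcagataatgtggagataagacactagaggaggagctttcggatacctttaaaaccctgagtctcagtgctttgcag
Stfa2: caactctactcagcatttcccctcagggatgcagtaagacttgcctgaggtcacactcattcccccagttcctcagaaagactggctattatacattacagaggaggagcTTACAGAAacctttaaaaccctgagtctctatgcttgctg
Stfa2l1: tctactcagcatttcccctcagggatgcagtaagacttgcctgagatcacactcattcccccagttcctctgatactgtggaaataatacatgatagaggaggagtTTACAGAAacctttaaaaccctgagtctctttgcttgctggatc
Ngp held 3 C/EBP matches, Ltf and the 3 stefins held 1 each, and Lcn2 and Camp held 0. Of the promoters read in the same way and not printed, Chil3 held 3, Fcnb, S100a8 and S100a9 held 1 each, and Retnlg and Elane held 0. Stfa2 and Stfa2l1 were 86.4% identical and shared a run of 45 bases, Stfa1 and Stfa2 were 81.4% identical, and Ltf and Ngp were 52.0% identical, with a longest shared run of 8 bases.

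The letters of the C/EBP core are common. They occurred in 6157 of 27025 RefSeq promoters of the same length (22.8%), in 660 of 3800 promoters of genes compared here (17.4%), and in 46 of the 129 promoters available for genes higher in neutrophil-like cells (35.7%). The ETS core GAGGAAG, or CTTCCTC on the other strand, was in 1828 of all promoters (6.76%), in 278 of those compared (7.32%) and in 19 of 129 (14.7%). A match is a description of the letters, not of a factor's binding, and these shares were not tested.

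Primary granule genes were split. All 16 listed genes were compared; 3 were higher and 3 lower, and the median log2 ratio of -0.30 equalled that of all genes. Elane (neutrophil elastase) had 19952, 15266, 4533 and 2772 CPM in suffixes 1 to 4, against 4660, 6219, 2489 and 2850 CPM. It was thus above the other cells in suffixes 1, 2 and 3 and level with them in suffix 4. Mpo (myeloperoxidase) had 4054, 3687, 434 and 94.4 CPM, against 2148, 2487, 445 and 472 CPM, and Ctsg (cathepsin G) had 3762, 3716, 662 and 387 CPM, against 3710, 3894, 1389 and 1528 CPM. Ctsg counted as lower, but not under the other scalings or after thinning to 1000 UMIs.

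The higher members were Ms4a3 (log2 ratio 3.45), a membrane gene of granulocyte and monocyte progenitors, Cd63 (2.16), a granule membrane protein, and Serpinb1a (2.02), an inhibitor of neutrophil serine proteases. Ms4a3 had 1755, 1385, 505 and 458 CPM, against 292, 320, 41.4 and 37.7 CPM. Ctsc, the protease that activates the neutrophil serine proteases, was lower at 13.3, 0, 4.87 and 8.003 CPM, against 54.2, 57.9, 44.7 and 48.1 CPM. Hexa was the remaining lower member at a log2 ratio of -1.01, and lost that place in 4 alternatives. Among neutrophil-like cells, Elane and Ctsg were thus highest in the few cells of suffixes 1 and 2, where Ltf, Lcn2, Chil3 and Fcnb were lowest. The other kept cells differed between the suffixes in the same direction for all of these genes, so the difference was not particular to neutrophil-like cells.

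The NADPH oxidase, which makes superoxide in phagocytes, had 3 of 8 genes higher and 0 lower (median log2 ratio 0.72). Cybb, the catalytic subunit, had 173, 146, 337 and 384 CPM, against 24.7, 34.6, 149 and 162 CPM, and Ncf1, the organising cytosolic subunit, had 399, 372, 424 and 461 CPM, against 147, 141, 179 and 178 CPM. Ncf4 (log2 ratio 1.07) also passed, while Cyba, the other membrane subunit, and Rac2, the GTPase of the complex, did not pass at 0.54 and 0.56. The excess of 2 to 3-fold in suffixes 3 and 4 was small beside that of the granule genes, and Cybb and Ncf4 no longer passed after thinning to 1000 UMIs.

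Receptors for chemoattractants went both ways. Of 11 listed genes, 6 were compared; 4 were higher and 2 lower. Cxcr2, the main chemokine receptor of neutrophils, had 0, 29.1, 25.3 and 17.6 CPM, against 0.793, 1.71, 1.01 and 1.14 CPM. Fpr2, a formyl peptide receptor, had 13.3, 14.6, 52.6 and 41.6 CPM, against 0, 0.122, 0.674 and 1.89 CPM, and C5ar1, the C5a receptor, had 13.3, 14.6, 50.7 and 60.8 CPM, against 0, 0.366, 4.94 and 4.79 CPM. Ltb4r1, the leukotriene B4 receptor, was the most abundant, at 266, 138, 370 and 371 CPM against 43.9, 51.6, 89.0 and 80.5 CPM. The monocyte chemokine receptors Ccr2 (log2 ratio -3.01) and Ccr1 (-1.64) were lower, and Ccr2 rests on 2 and 4 UMIs in the neutrophil-like cells of suffixes 3 and 4, with ratios of 0.0288 (0.00348 to 0.104) and 0.0976 (0.0265 to 0.251).

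Pattern and Fc receptors gave 4 higher and 1 lower of 13 compared. Trem3, a receptor of granulocytes and macrophages, had 505, 423, 346 and 389 CPM, against 105, 142, 65.2 and 87.7 CPM. Ly6g, the surface antigen used to sort mouse neutrophils, had 0, 14.6, 16.6 and 32.0 CPM, against 0.132, 0.244, 0.225 and 0.252 CPM, or 17 and 20 UMIs against 2 each in suffixes 3 and 4 (ratios 73.8, 17.5 to 659, and 127, 30.8 to 1119). Ly6g was thus barely detected in cells with abundant granule transcripts. Fcgr4 (1.47) and Cd300lf (1.98) were the other higher genes and Clec4d (-1.51) the lower one. Clec12a, an inhibitory lectin receptor, was abundant on both sides and did not pass (0.26).

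Of 9 cytokine receptors compared, 0 were higher and 2 lower. Csf1r, the receptor of macrophage colony-stimulating factor, had 0, 0, 9.75 and 14.4 CPM, against 13.9, 16.6, 58.4 and 56.7 CPM. Flt3, a receptor tyrosine kinase of progenitors, had 0, 0, 12.7 and 9.60 CPM, against 105, 90.5, 110 and 121 CPM. Neither reached the level of the other cells in any suffix. Ifngr1 (-0.20) and Tnfrsf1a (0.20), receptors of interferon-gamma and tumour necrosis factor, did not pass.

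Adhesion genes gave 4 higher and 1 lower of 13 compared. Anxa1 (annexin A1, log2 ratio 1.66), Cd9 (1.62), Ceacam1 (1.55) and Ceacam10 (2.47) were higher and Selplg (PSGL-1, the P-selectin ligand) lower at -1.71. Anxa1 had 465, 313, 451 and 768 CPM, against 97.2, 96.2, 169 and 196 CPM. Ceacam10 had 93.0, 21.9, 24.4 and 22.4 CPM, against 0, 0, 0 and 0.252 CPM, and was at least 72.4-fold higher in suffix 3, taking 3 counts as the floor of the other cells. The list's median of 0.87 was the same with Ceacam10 at that bound. The integrin genes Itgb2 and Itgam, which encode the chains of Mac-1, did not pass, at log2 ratios of 1.00 and 0.87, nor did Anxa3 (annexin A3) at 1.00.

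Among eicosanoid and inflammatory genes, leukotriene synthesis and chemokines went opposite ways. Alox5, the lipoxygenase that starts leukotriene synthesis, had 53.2, 14.6, 35.1 and 41.6 CPM, against 3.83, 2.44, 2.92 and 2.65 CPM, and Lta4h, which makes leukotriene B4, had 332, 379, 547 and 619 CPM, against 137, 161, 116 and 116 CPM. Ptgs1 (cyclooxygenase-1) was higher as well (2.66), while Alox5ap, the partner protein of ALOX5, did not pass (0.35). The chemokine genes Ccl9 (-4.10) and Ccl3 (-2.80) were lower. The list thus had 3 higher and 2 lower of 8 compared, and Il1b had at most 1 UMI in any suffix.

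Among granulocyte transcription factors, 4 of 12 compared were higher and 1 lower. Cebpe (C/EBP-epsilon) had 585, 627, 497 and 640 CPM, against 162, 195, 97.1 and 93.6 CPM. A Cebpe UMI was seen in 88.1% and 88.3% of neutrophil-like cells of suffixes 3 and 4, against 28.9% and 26.8% of the others. Gfi1 had 39.9, 65.6, 78.0 and 64.0 CPM, against 29.2, 32.4, 14.7 and 22.5 CPM. Both regulators of specific granules thus passed the 2-fold rule in suffixes 3 and 4. Lmo4 (1.56) and Mxd1 (1.32), a MYC antagonist, also passed, Cebpa (-0.90), Cebpb (0.15) and Spi1 (0.24) did not, and Runx1 counted as lower (-1.24) under scaling to all UMIs but not under the other 3 scalings.

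Progenitor and monocyte transcription factors were lower in 5 of 10 compared and higher in 1, with a median log2 ratio of -1.02 and a background of 6.43% lower. Irf8 had 0, 36.4, 49.7 and 48.0 CPM, against 383, 378, 579 and 612 CPM, a ratio of 0.0858 (0.0638 to 0.113) in suffix 3 and 0.0785 (0.0529 to 0.112) in suffix 4. Klf4 (-1.97), Gata2 (-1.95), Fos (-1.86) and Zeb2 (-1.50) were the other lower genes. Id2, an inhibitor of helix-loop-helix factors, was the higher one at 146, 102, 258 and 261 CPM against 40.7, 34.7, 126 and 95.3 CPM. Myc stood at 53.2, 29.1, 15.6 and 16.0 CPM, against 55.5, 56.7, 12.6 and 16.0 CPM, and did not pass, nor did Myb (0.13), a progenitor factor.

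Nuclear genes gave 3 higher and 0 lower of 11. Padi4, the enzyme that citrullinates histones in neutrophils, had 13.3, 43.7, 115 and 101 CPM, against 14.9, 16.1, 17.2 and 14.5 CPM. Hmgn2, a nucleosome-binding protein, had 2738, 2514, 1771 and 1825 CPM, against 790, 649, 429 and 421 CPM. Syne1 passed with a log2 ratio of 2.78, and Hmgb2, a chromatin protein, did not at 0.70. The lamina gene Lmnb1 (-0.23) and the lamin B receptor gene Lbr (-0.10) were close to the other cells. Actin and motility genes were near them too, with 2 of 27 higher (Fgr, a Src-family kinase, 2.11, and Gsn, gelsolin, 1.52) and a median of 0.06. Tmsb4x (thymosin beta-4, which binds free actin) did not pass at 18809, 18574, 16721 and 20406 CPM against 7143, 7741, 10035 and 10642 CPM, nor did Actg1 (gamma-actin, 0.13).

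**Figure D3:**
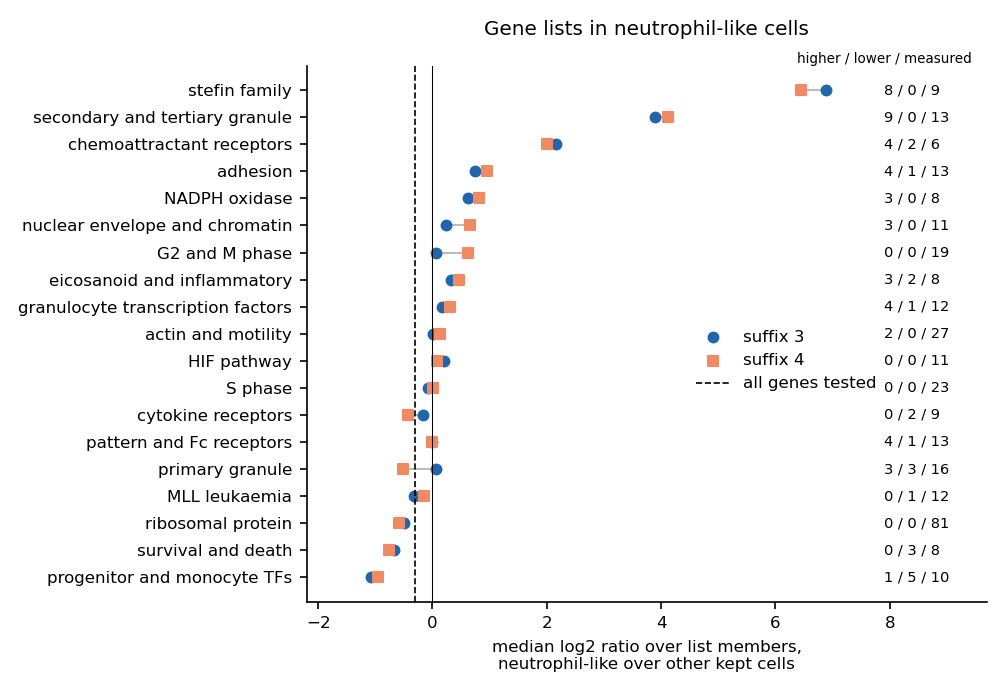
Median log2 ratio over the compared genes of each list, neutrophil-like over other kept cells, with 1 symbol per suffix, the median of all genes dashed, and the counts of higher, lower and compared genes at the right. Stefins and secondary and tertiary granule genes stand apart from all other lists, and the progenitor and monocyte factors, survival genes and ribosomal genes lie lowest.

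Division genes were not lower in neutrophil-like cells. Of 19 G2 and M phase genes compared, 0 were higher and 0 lower, with medians of 0.07 in suffix 3 and 0.61 in suffix 4, and of 23 S phase genes 0 were higher and 0 lower (median -0.02). Top2a had 93.0, 80.2, 100.4 and 134 CPM, against 120, 99.5, 100.0 and 111 CPM. Ube2c, a mitotic ubiquitin enzyme, parted the suffixes, at 61.4 CPM against 58.4 CPM in suffix 3 and 232 CPM against 75.6 CPM in suffix 4. The other genes named by level or ratio did not pass either: Cks2 (0.25), Tubb4b (0.24) and Kif23 (0.68) of G2 and M phase, and Slbp (0.11), Tipin (-0.02), Mcm4 (-0.67) and Ung (-0.58) of S phase.

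Leukaemia genes were close to the level of the other cells. The MLL targets Hoxa9, Hoxa7, Hoxa10 and Meis1 together had 425, 510, 353 and 331 CPM, against 447, 375, 394 and 383 CPM. The ratio was 0.951, 1.36, 0.895 (0.801 to 0.998) and 0.864 (0.747 to 0.995) in suffixes 1 to 4, so the summed level lay within 1.5-fold of the other kept cells in every suffix. Of 12 MLL leukaemia genes compared, 0 were higher and 1, Bcl2, was lower, at 0, 0, 13.6 and 24.0 CPM against 158, 139, 171 and 165 CPM. Mef2c, a transcription factor, did not pass at 79.8, 131, 164 and 117 CPM against 274, 191, 320.2 and 259 CPM, nor did the kinase gene Cdk6 (-0.32).

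Survival and death genes gave 0 higher and 3 lower of 8. Bid, a pro-death BCL2 family member, had 120, 65.6, 42.9 and 32.0 CPM, against 138, 131, 118 and 120 CPM. Bax (-1.10) and Bbc3 (-1.23) were lower by the 2-fold rule but not under all scalings, and Bbc3 also not after thinning. Bak1 (-0.48) did not pass. Hif1a itself had 79.8, 29.1, 34.1 and 16.0 CPM, against 38.0, 35.3, 29.0 and 27.4 CPM, on 35 and 10 UMIs in suffixes 3 and 4, and did not differ by 2-fold (ratios 1.18, 0.803 to 1.68, and 0.585, 0.276 to 1.10). The labels do not say which stretch of the gene is deleted, so counts of transcript ends do not check the deletion. Of 11 HIF pathway genes, 0 passed in either direction (median 0.05), among them the glycolytic genes Pkm (0.30), Aldoa (-0.25) and Eno1 (0.60) and the prolyl hydroxylase gene Egln2 (0.62). Of 81 ribosomal protein genes 0 passed, with a median of -0.54 and values of -0.57 for Rpl32, -0.23 for Rps27a and -0.81 for Rpl10.

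Outside the lists, the largest log2 ratios belonged to Retnlg (5.67), Wfdc21 (4.88), Mapk13 (4.70), Itgb2l (4.61), Lrg1 (4.21), Mrgpra2b (3.78), 4930438A08Rik (3.54), G0s2 (3.36), Tinagl1 (3.21) and Mogat2 (3.20). Retnlg, which encodes a resistin-like secreted protein of mature neutrophils, had 0, 58.3, 396 and 322 CPM, against 0, 0, 3.03 and 1.26 CPM. Itgb2l, an integrin beta chain gene, had 53.2, 43.7, 119 and 123 CPM, against 0, 0, 0.337 and 0 CPM, a ratio of 353 (118 to 1736) in suffix 3 and at least 326-fold in suffix 4. Lrg1, a glycoprotein of neutrophil granules, had 213, 284, 123 and 86.4 CPM, against 4.49, 4.88, 1.80 and 0 CPM, and was at least 228-fold higher in suffix 4. Mapk13, which encodes the p38-delta kinase, had 226, 124, 193 and 248 CPM, against 2.11, 3.78, 3.82 and 3.41 CPM. Mapk13 and Lrg1 thus passed 80 CPM in all 4 suffixes, while Retnlg rested on suffixes 3 and 4. In suffix 2 all 8 Retnlg UMIs came from 1 of 21 cells.

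The smallest log2 ratios outside the lists belonged to Ms4a6c (-4.40), Ms4a6b (-3.90), Mndal (-3.74), Ms4a4c (-3.58), Cd34 (-3.55), F13a1 (-3.50), Apoe (-3.38), Prdx4 (-3.31), Ctss (-3.22) and Pld4 (-3.19). Ms4a6c and F13a1, which encodes a subunit of coagulation factor XIII, are monocyte markers. Ms4a6c had 13.3, 43.7, 53.6 and 27.2 CPM, against 264, 295, 940 and 890 CPM. Cd34, a surface antigen of progenitors, had 0, 7.29, 9.75 and 4.80 CPM, against 149, 147, 137 and 136 CPM. The genes lowest in neutrophil-like cells thus included monocyte and progenitor genes that the other kept cells carried in every suffix.

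Neutrophil-like cells were then set against 2 kinds of other kept cells defined by their own genes. The first were 515 cells with at least 1% Elane UMIs (64 in suffix 3 and 60 in suffix 4), so Elane and the genes that vary with it are fixed by that choice. Among 4702 genes, 154 were higher (3.28%) and 154 lower (3.28%) in neutrophil-like cells. Secondary and tertiary granule genes were higher in 10 of 13 and stefins in 8 of 9. Ltf had 1073 and 842 CPM in neutrophil-like cells of suffixes 3 and 4, against 3.83 and 0 CPM in Elane-high cells, and Cebpe had 497 and 640 CPM, against 236 and 228 CPM. Among 16 primary granule genes, 6 were lower and 0 higher, with Mpo at 434 and 94.4 CPM against 2380 and 1984 CPM. Irf8 was lower here too, at 49.7 and 48.0 CPM against 330 and 387 CPM.

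The other kind were 306 cells with both a Csf1r and a Ccr2 UMI (142 in suffix 3 and 130 in suffix 4), genes of monocytes. Csf1r, Ccr2 and the genes that vary with them are fixed by that choice. Among 5005 genes, 184 were higher (3.68%) and 487 lower (9.73%). Cebpe had 497 and 640 CPM in neutrophil-like cells, against 33.0 and 26.9 CPM, and Gfi1 had 78.0 and 64.0 CPM, against 1.32 and 7.08 CPM. Irf8 stood at 49.7 and 48.0 CPM, against 840 and 801 CPM. Lyz2 did not pass, at 6935 and 7789 CPM against 10880 and 12650 CPM, nor did Hp, at 1513 and 1818 CPM against 980 and 1121 CPM. Both sets of other cells share the neutrophil-like cells of this comparison, so the lists they yield are not independent of each other.

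Within the group, cells of suffixes 3 and 4 were ordered by the log2 ratio of summed late genes (Mmp8, Mmp9, Retnlg, Cxcr2, Csf3r, Il1b, Slpi, Msrb1, Asprv1, Trem1, Clec4d and G0s2) to summed early genes (Elane, Mpo, Prtn3, Ctsg, Ms4a3 and Nkg7), each per 10000 UMIs with 1 added. They were cut into 3 equal bins, first, middle and last, of 53 cells each in suffix 3 and 37 in suffix 4, and suffixes 1 and 2 held too few cells. The ordering genes and the rule genes were left out of what follows, except where they are named as a description. Elane is lower late by construction, with 9806, 1753 and 142 CPM in the first, middle and last bins of suffix 3 and 6124, 814 and 74.5 CPM in those of suffix 4. The order is a range and not a set of types: 12 and 8 cells of suffix 3, and 12 and 10 of suffix 4, lay within 0.25 of the lower and upper cut.

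**Figure D4:**
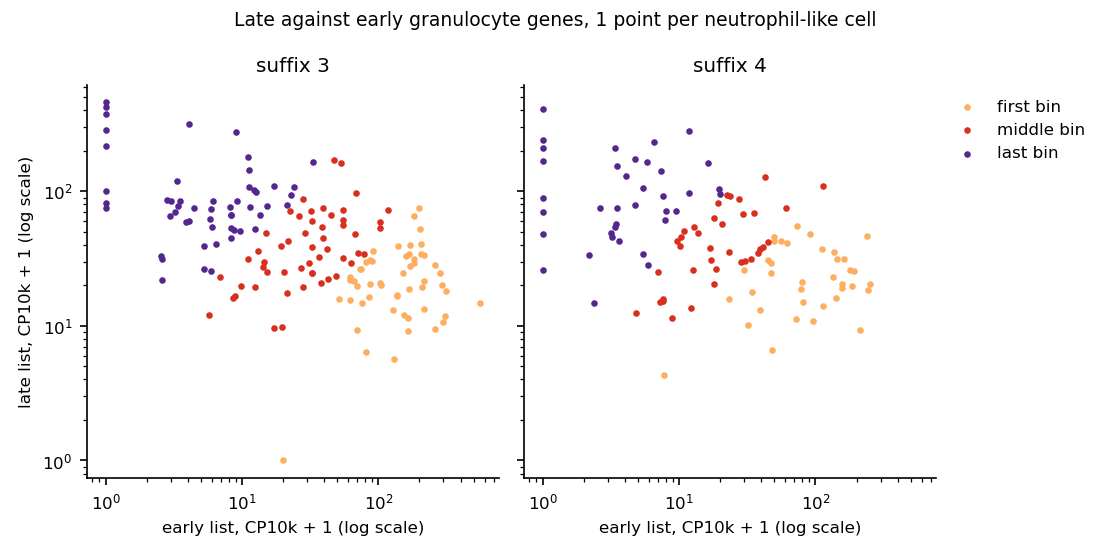
Summed late genes against summed early genes in each neutrophil-like cell of suffixes 3 and 4 (UMIs per 10000 with 1 added, both axes logarithmic), coloured by bin of the order. The bins run without a gap, and 8 cells of the last bin in each suffix had no UMI of an early gene.

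Depth moved with the order. The median cell had 7280, 6850 and 4674 UMIs in the first, middle and last bins of suffix 3 and 6290, 6004 and 4041 in those of suffix 4, and mitochondrial UMIs were 2.18, 1.64 and 1.10% and 2.31, 1.62 and 1.29%. The rule genes took 9.23, 15.8 and 20.5% of a median cell's UMIs in suffix 3 and 9.01, 14.8 and 15.9% in suffix 4. Spearman's rho of the order with UMIs per cell was -0.52 over 159 cells and -0.58 over 111 cells, where the score and the depth come from the same UMIs. The part of depth in the order was not tested beyond thinning each cell to 1000 UMIs, which gave an order correlated with the full one at rho 0.89 and 0.86.

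Among 2338 genes with at least 50 CPM, 80 were at least 2-fold higher in the last than in the first bin in both suffixes (3.42%) and 59 were lower (2.52%), with 20 CPM added to both sides. The median gene had a log2 ratio of -0.17. With totals counted without the 4 rule genes the split was 110 higher and 30 lower, and the lower genes outnumbered the higher ones under 5 of 13 alternatives, among them suffix 3 alone (127 higher, 158 lower) and suffix 4 alone (175 and 211). The 10 largest were Stfa2 (6.60), Ltf (5.95), Stfa3 (5.48), Ifitm6 (4.70), Retnla (4.42), S100a6 (4.26), Plbd1 (3.60), Lgals3 (3.34), Fpr2 (3.26) and Stfa2l1 (3.08). The 10 smallest were Gstm1 (-3.01), Srgn (-2.34), Igfbp4 (-1.92), Snrpa (-1.80), Tfec (-1.80), Fbp1 (-1.67), Mt1 (-1.64), Lect1 (-1.52), Etfb (-1.50) and Cnpy2 (-1.50).

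Secondary granule genes came on at different points of the order. Ltf had 7.41, 641 and 3397 CPM in the first, middle and last bins of suffix 3, and 63.8, 597 and 2538 CPM in those of suffix 4. An Ltf UMI was seen in 3, 11 and 29 of 53 cells and in 4, 10 and 17 of 37 cells. Lcn2 had 1257, 3865 and 11117 CPM and 1769, 5627 and 11939 CPM, and was already seen in 51 of 53 and 36 of 37 cells of the first bin. Lcn2 thus increased in cells that nearly all had it. Ltf was seen in more cells of each later bin, but its level grew by a larger factor than its number of cells.

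Other specific granule genes did not follow Ltf. Fcnb had 1274, 1417 and 1346 CPM in suffix 3 and 1430, 1159 and 758 CPM in suffix 4. Chil3 had 6352, 12174 and 11936 CPM and 11615, 19952 and 16677 CPM. It was highest in the middle bin in suffix 4 and nearly level between the middle and last bins in suffix 3. Pglyrp1 went through 1435, 1638 and 2102 CPM and 1538, 1509 and 2024 CPM. None of these 3 passed, and 4 of 10 secondary and tertiary granule genes compared did: Ltf, Lcn2, Lyz2 and Cd177. Among the rule genes, as a description, Camp was highest in the middle bin of both suffixes, at 23384, 35682 and 27076 CPM and 32702, 46128 and 36150 CPM. Ngp was higher in each later bin, at 7500, 21586 and 29296 CPM and 13329, 24748 and 33456 CPM.

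Stefins separated into late and broad members. Stfa2 had 2.47, 68.1 and 3185 CPM in the bins of suffix 3 and 7.97, 310 and 1814 CPM in those of suffix 4, and Stfa3 had 4.94, 24.5 and 901 CPM and 7.97, 314 and 1482 CPM. First-bin counts were 1 and 2 UMIs for Stfa2, so its last-to-first ratios of 1290 (231 to 50999) and 228 (62.4 to 1889) are loose. Stfa2l1, whose promoter is 86.4% identical to that of Stfa2, had 474, 1614 and 4736 CPM and 422, 1367 and 3289 CPM and was thus present from the first bin. Stfa1, the most abundant, had 8643, 20766 and 28474 CPM and 10511, 19709 and 19642 CPM and did not pass in suffix 4. Of 9 stefins compared, 6 were higher and 0 lower. Summed stefins without Cstb were 4.49-fold (4.38 to 4.62) higher in the last than in the first bin in suffix 3 and 2.57-fold (2.49 to 2.66) in suffix 4.

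Of 5 chemoattractant receptors compared, 3 were higher in the last bin (C5ar1, Fpr1 and Fpr2). Fpr1, a formyl peptide receptor, had 0, 0 and 66.9 CPM in suffix 3 and 0, 0 and 40.6 CPM in suffix 4, and no longer passed under 5 of 13 alternatives. Fpr2 had 0, 21.8 and 181 CPM in suffix 3 and 0, 8.85 and 162 CPM in suffix 4, at least 24.4-fold and 13.6-fold higher in the last bin. C5ar1 had 14.8, 35.4 and 130 CPM and 3.98, 61.9 and 156 CPM, the first-bin value of suffix 4 being 1 UMI. Cybb had 156, 313 and 661 CPM and 247, 296 and 751 CPM and was the only one of 8 oxidase genes to pass. Anxa1 had 188, 352 and 1016 CPM and 331, 814 and 1442 CPM, and Pirb, an inhibitory immunoglobulin-like receptor, had 22.2, 35.4 and 106 CPM and 7.97, 48.7 and 203 CPM. Fpr2, C5ar1, Cybb, Anxa1 and Pirb were higher in each later bin in both suffixes, and Fpr1 was seen only in the last.

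Some late genes are ones that monocytes share. Lyz2 had 2314, 6965 and 14258 CPM in suffix 3 and 3399, 7468 and 15736 CPM in suffix 4. Lgals3 (galectin-3) had 74.1, 166 and 697 CPM and 43.8, 296 and 839 CPM, and S100a6 had 17.3, 51.8 and 567 CPM and 3.98, 13.3 and 541 CPM. Irf8 had 22.2, 59.97 and 78.7 CPM and 7.97, 57.5 and 102 CPM, still far under the 579 and 612 CPM of the other kept cells. An Irf8 UMI was seen in only 6, 9 and 9 of 53 cells and in 1, 7 and 7 of 37 cells. Among other kept cells it was seen in 86.6% and 88.3%. The first-bin values of Irf8 and S100a6 in suffix 4 came from 1 cell each. Summed monocyte markers were 2852, 3157 and 3405 CPM and 2439, 2106 and 3174 CPM over the bins, and summed dendritic markers were at 0 in the last bin of both suffixes. The part of monocyte RNA in these increases was not tested.

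**Figure D5:**
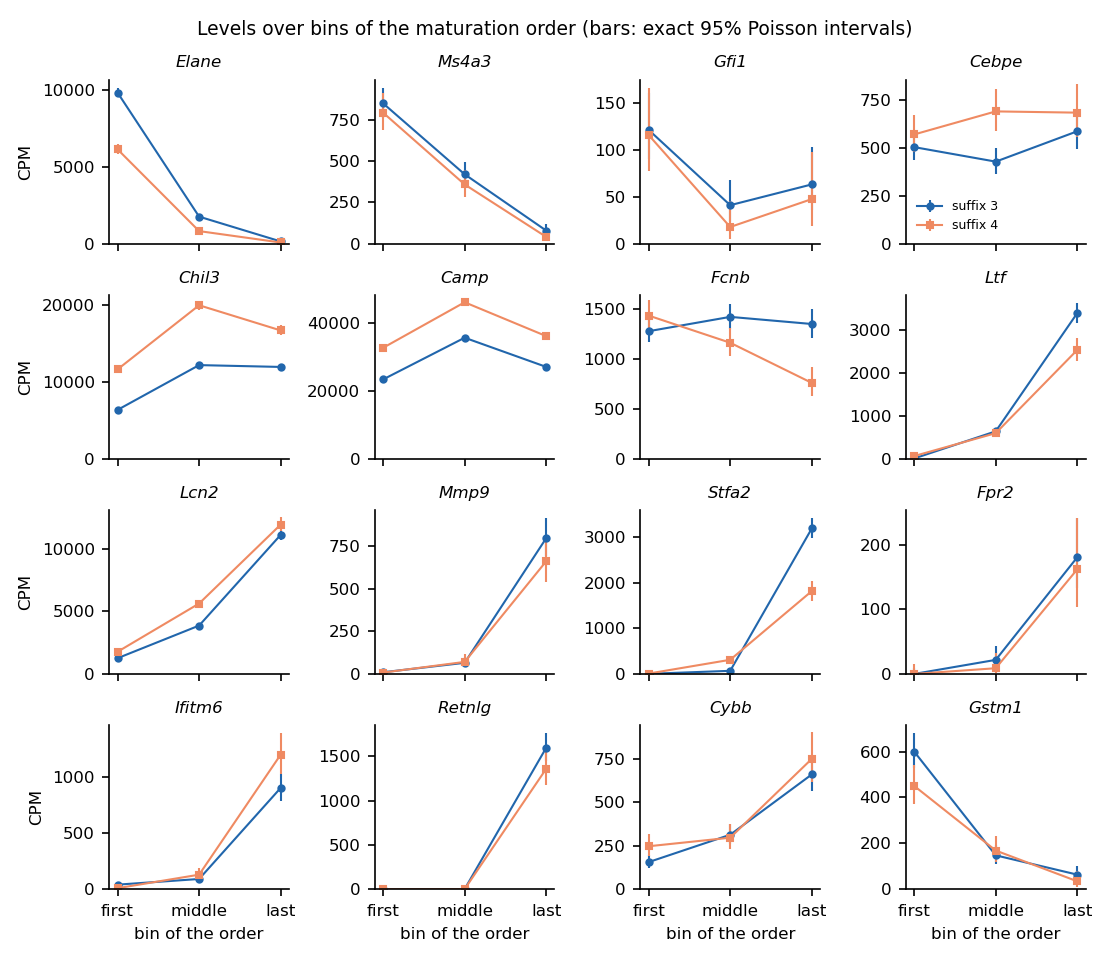
Levels (CPM, linear axes from 0, bars exact 95% Poisson intervals) over the first, middle and last bins of the order in suffixes 3 and 4. Elane, Ms4a3, Mmp9 and Retnlg helped set the order and Camp chose the cells. Among the rest, Ltf, Lcn2, Stfa2, Fpr2, Ifitm6 and Cybb are highest in the last bin, Gstm1 is highest in the first, and Cebpe stays level. Chil3 is highest in the middle bin in suffix 4 and nearly level between the middle and last bins in suffix 3.

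Genes lower in the last bin were led by Gstm1. Gstm1, a glutathione transferase, had 600.1, 147 and 63.0 CPM in suffix 3 and 450, 168 and 33.8 CPM in suffix 4. Srgn (serglycin, the proteoglycan that packs granule proteases) had 1766, 766 and 311 CPM and 1423, 575 and 284 CPM. With Cst7 and Serpinb1a it made 3 primary granule genes lower of 9 compared, with 0 higher, but Cst7 and Serpinb1a no longer passed under 4 and 5 of 13 alternatives. Gfi1 had 121, 40.9 and 63.0 CPM and 116, 17.7 and 47.4 CPM, and did not pass. Cebpe was level at 504, 428 and 587 CPM and 570, 690 and 684 CPM. Of the 2 regulators higher in the group as a whole, Gfi1 was thus highest in the first bin and Cebpe showed no such slope.

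Ribosomal protein genes followed the order most closely downwards. Of 81, 23 were lower in the last bin and 0 higher, with a median of -0.90, while 2.52% of all genes were lower. Rps2 had 3373, 2325 and 1303 CPM in suffix 3 and 3395, 2460 and 1293 CPM in suffix 4, with a rho over cells of -0.71 in both. Rpl3, Rps19 and Rpl14 were also among the genes with the lowest rho. Most of the ribosomal calls were lost under each of 5 alternatives, which were the late list alone, 2 bins, leaving out the cells holding a Retnlg UMI, thinning to 1000 UMIs, and totals without the 4 rule genes, whose own share was higher in later bins. The genes with the highest rho were Lcn2 (0.67 and 0.63), Lyz2, Lgals3, Ifitm6 and Actb (0.56 and 0.55). Points are cells of 1 library each, 159 and 111, and all genes of a cell share its total.

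No single division gene passed along the order, but their summed levels were lower in the last than in the first bin. Of 11 G2 and M phase genes and 12 S phase genes compared, 0 were higher and 0 lower, with medians of -0.47 and -0.37. Among all genes, 3.42% were higher and 2.52% lower. Summed over the list, G2 and M phase genes had 1761, 1025 and 1043 CPM in the bins of suffix 3 and 1917, 2995 and 1631 CPM in those of suffix 4. S phase genes had 1395, 2113 and 1051 CPM and 1562, 2017 and 1137 CPM and were highest in the middle bin in both suffixes. For G2 and M phase genes the last bin stood at 0.592 (0.513 to 0.683) and 0.851 (0.726 to 0.996) of the first. For S phase genes it stood at 0.753 (0.649 to 0.873) and 0.728 (0.604 to 0.874). The median cell of the last bin had 310 and 305 CPM of G2 and M phase genes, against 655 and 550 CPM in the first. It had 271 and 305 CPM of S phase genes, against 894 and 892 CPM.

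Hoxa9, Hoxa7, Hoxa10 and Meis1 together had 333, 433 and 268 CPM in the bins of suffix 3 and 375, 327 and 264 CPM in those of suffix 4. The last bin stood at 0.803 (0.591 to 1.08) and 0.705 (0.472 to 1.03) of the first. Both intervals include no difference, and these MLL targets were detected in every bin.

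Retnlg, one of the late ordering genes, was seen only in the last bin. It was found in 18 of 159 and 11 of 111 neutrophil-like cells, all in the last bin, against 1.57% and 0.772% of other kept cells. The 13 and 7 cells with at least 3 Retnlg UMIs, a group chosen after these values were seen, had a median of 3265 and 2904 UMIs, against 6482 and 5457 in neutrophil-like cells with fewer. In these cells Mmp8 had 1749 and 801 CPM, against 17.3 and 51.3 CPM, and Ltf had 4840 and 5355 CPM, against 914 and 693 CPM. Of the 4 rule genes, only Camp was lower, at 14928 and 16266 CPM, against 29280 and 39106 CPM. Ngp, S100a8 and S100a9 stood at 1.55, 1.59 and 1.92 times the level of cells with fewer in suffix 3. In suffix 4 they stood at 1.58, 1.37 and 1.55 times. Summed G2 and M phase genes stood at 144 and 300.3 CPM, against 1370 and 2303 CPM, ratios of 0.105 (0.0384 to 0.229) and 0.130 (0.0478 to 0.284). Hoxa9, Hoxa7, Hoxa10 and Meis1 rested on 8 and 4 UMIs there, at 0.533 (0.228 to 1.06) and 0.596 (0.161 to 1.55) of the level in cells with fewer.

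The neutrophil-like cells of suffixes 1 and 2 resembled no single bin in all genes. They had 19952 and 15266 CPM of Elane, above the first bins of suffixes 3 and 4, together with Cebpe at 585 and 627 CPM and Pglyrp1 at 1701 and 1618 CPM. Stefins without Cstb summed to 13478 and 16796 CPM, and to 18208 and 22414 CPM in those first bins. Their Chil3, at 904 and 1078 CPM, lay below the first bins, at 6352 and 11615 CPM. With 12 and 21 cells, 1 cell can set a value there, as for Ltf.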

How the data were processed

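Single-cell RNA of GFP-positive marrow cells was measured in 4 samples. The deposited table holds raw UMI counts per gene symbol and barcode, for 27998 symbols and 5664 barcodes, with no normalization by the authors. Per the submitters' processing notes, the authors used Cell Ranger 1.3, build mm10 and Seurat 2.3.4 (1.4 in the series design text). They name no gene annotation.

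Counts were summed over neutrophil-like and over other kept cells of a suffix and divided by their totals (CPM). Depth was 75231, 137233, 1025814 and 624754 UMIs over neutrophil-like cells of suffixes 1 to 4, so a gene with no UMI is bounded by 3 counts, 39.9, 21.9, 2.92 and 4.80 CPM. Level minimums, added CPM and the 2-fold rule stand in the text. The rule was run on simulated Poisson counts without spread between cells. That cannot show how it behaves where a few cells hold most UMIs of a gene. The cell rule and the gene lists were chosen with earlier results of these data known. Named genes are list members (always the 2 most abundant and the 2 others with the largest ratios), the 10 largest and 10 smallest ratios outside the lists and along the order, the 5 highest and lowest rho, Hif1a and cell type markers. A gene that this rule names is not reported here. Of the listed genes, Clec7a, Cebpd and Ighm had no match in the table.

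Python 3.11.15, numpy 2.4.6, scipy 1.17.1, scanpy 1.11.5 and edgeR 4.0.16 (TMM factors only) were used. Scrublet marked 24 of 5456 cells (0.44%), too few to count as a working call, and no doublets were removed. Alternatives were other cuts, mitochondrial limits, scalings, added CPM, level minimums, thinning, orders and single suffixes.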

Additional observations from a re-analysis of the deposited data

How the results depend on the processing

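No paired analysis was possible because no suffix is tied to a sample and no comparison has replicates. The share of neutrophil-like cells was 6.21% at a 0.5% marker minimum, against 5.55% at 1%; in suffix 1 it was 0.596% at a 2% minimum, against 1.02%. The count of genes higher stayed within 1.5 times of 160 under all 13 alternatives. The count lower, 315, was 489 after thinning to 1000 UMIs and 512 in suffix 4 alone. No called gene named from a list changed direction under any alternative tried; the median of the chemoattractant receptors was -0.11 with no level minimum, against 2.09, because genes with almost no UMIs then enter it.

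The order was less stable. Genes lower late, 59, were 94 with 5 CPM added, 204 with an order by the first principal component, 14 with the late list alone, 5 with 2 bins instead of 3, 167 after thinning, 30 with totals without the 4 rule genes, 158 and 211 in suffixes 3 and 4 alone, and, in alternatives chosen after seeing the data, 109 without Slpi and Msrb1 in the late list and 18 without cells having a Retnlg UMI. Genes higher late, 80, were 38 with 2 bins, 160 after thinning, 127 and 175 in suffixes 3 and 4 alone, and 52 without the Retnlg cells. The cause of these moves was not tested. Slpi and Msrb1 gave 81.5% and 83.6% of the late UMIs in suffixes 3 and 4. Ltf, Lcn2, Lyz2, Stfa2, Stfa3, Ifitm6, S100a6, Lgals3, Plbd1, Fpr2, C5ar1, Cybb, Anxa1, Pirb, Irf8, Retnla and Gstm1 passed in all 13. Among cells as a whole, Bbc3, Cd9, Clec4d, Ctsg, Cybb, Gsn, Id2, Mxd1 and Ncf4 no longer passed after thinning, Cxcr2 in suffix 4 alone, Ly6g in suffix 3 alone, and Klf4 against cells without Csf1r and Ccr2 (chosen after seeing the data). With 1 library per suffix and 12 and 21 neutrophil-like cells in suffixes 1 and 2, depth limits low genes there.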

Other observations

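Retnla, the gene of the resistin-like protein RELM-alpha, was among the largest late ratios but rested on few cells. It had 0, 0 and 209 CPM in the first, middle and last bins of the maturation order in suffix 3 and 0, 0 and 778 CPM in those of suffix 4, at least 28.2-fold and 65.1-fold higher in the last than in the first bin with 3 counts as the floor. These UMIs came from 3 cells in suffix 3 and 4 cells in suffix 4, of which a single cell held 49.1% and 59.1%. A Retnla UMI was thus seen in 1.89% and 3.60% of neutrophil-like cells, against 1.5% and 2.01% of other kept cells. Prg2, the eosinophil major basic protein gene, had 244 CPM in the last bin of suffix 3, from 4 cells, and a Prg2 UMI was seen in 5.03% of neutrophil-like cells of that suffix, against 2.66% of other kept cells.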
